A study of Mus musculus with 2 samples.

Results

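Cytochrome P450 genes encode haem enzymes that oxidise steroids, bile acids, vitamins, fatty acids, drugs and other foreign compounds. The protein-coding genes taken here are those of GENCODE on mouse build mm10 whose symbol is Cyp followed by digits, a letter and digits, without the retinoic acid hydroxylases Cyp26a1, Cyp26b1 and Cyp26c1. There were 90 such genes among 21755 protein-coding genes of the autosomes and the X chromosome, on 13 chromosomes. The symbol rule leaves out 7 further P450 genes, such as Cyp51 of cholesterol synthesis and the copies Cyp3a41a and Cyp3a41b. Of the 90, 72 belong to the Cyp2, Cyp3 and Cyp4 families, which mostly lie in tandem arrays and include the main enzymes of foreign-compound metabolism, and 18 belong to other families.

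The series profiled trimethylation of histone H3 lysine 27 (H3K27me3) with ChIP-seq, which sequences the DNA bound to a modified histone. The cells were E14TG2a.4, a male embryonic stem cell line from 129/Ola mice whose origin the labels place at 3.5 days of development. There were 2 samples, labelled as biological replicates 1 and 2 of 1 untreated group, so no condition was compared with another and no test between groups could be made. Replicate 1 had 63651 peaks and replicate 2 had 98582 peaks in the lists called on each replicate alone. The read depth behind the lists is unknown. A gene is called marked here when the window reaching 1 kb to each side of its start overlaps a peak in both replicates. The labelled cell type was checked at a few promoters. Pou5f1, Nanog and Sox2, which pluripotent cells express, had no peak in either replicate, and the developmental regulators Hoxd13, Pax6, Gata6 and T were all marked.

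As background, H3K27me3 is laid down by Polycomb repressive complex 2 and marks silent genes, above all at promoters rich in CpG dinucleotides. Most P450 genes are silent in embryonic stem cells and are switched on in liver, kidney, gut, adrenal gland, gonads or skin. Many of them have promoters with few CpG dinucleotides. A silent gene therefore need not carry this mark, and absence of a peak does not show that a gene is expressed.

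Each sequence below holds the 250 bases before the start and the first 50 bases from it, 5′ to 3′ on the gene's strand, with each CG dinucleotide in capitals. The first 4 are the marked P450 genes with the highest signal ranks, and the last 2 are the Cyp2, Cyp3 or Cyp4 genes without a peak that have the lowest CpG ratios. Their positions on GRCm38.p6, from the RefSeq copy of the genome, are Cyp24a1 chr2:170497096-170497395 (minus strand), Cyp1b1 chr17:79715012-79715311 (minus strand), Cyp27b1 chr10:127048000-127048299 (plus strand), Cyp46a1 chr12:108334131-108334430 (plus strand), Cyp3a59 chr5:146079007-146079306 (plus strand), Cyp3a25 chr5:146009569-146009868 (minus strand).
Cyp24a1: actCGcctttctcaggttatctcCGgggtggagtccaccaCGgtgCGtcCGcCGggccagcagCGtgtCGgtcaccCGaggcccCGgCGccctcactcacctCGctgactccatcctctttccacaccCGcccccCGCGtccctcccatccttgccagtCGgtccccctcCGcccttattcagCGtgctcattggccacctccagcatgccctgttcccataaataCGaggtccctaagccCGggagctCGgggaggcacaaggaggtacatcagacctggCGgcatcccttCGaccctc
Cyp1b1: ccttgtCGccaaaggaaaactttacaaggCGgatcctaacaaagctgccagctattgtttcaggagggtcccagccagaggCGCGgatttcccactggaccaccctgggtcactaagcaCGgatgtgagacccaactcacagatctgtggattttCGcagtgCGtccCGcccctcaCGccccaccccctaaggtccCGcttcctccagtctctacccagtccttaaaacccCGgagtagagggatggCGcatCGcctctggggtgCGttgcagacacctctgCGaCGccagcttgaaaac
Cyp27b1: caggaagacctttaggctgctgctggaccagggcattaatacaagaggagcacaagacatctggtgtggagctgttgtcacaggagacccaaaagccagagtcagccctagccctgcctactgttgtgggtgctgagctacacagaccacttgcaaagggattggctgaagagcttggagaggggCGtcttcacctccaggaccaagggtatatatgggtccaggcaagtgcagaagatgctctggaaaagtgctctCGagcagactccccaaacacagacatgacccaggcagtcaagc
Cyp46a1: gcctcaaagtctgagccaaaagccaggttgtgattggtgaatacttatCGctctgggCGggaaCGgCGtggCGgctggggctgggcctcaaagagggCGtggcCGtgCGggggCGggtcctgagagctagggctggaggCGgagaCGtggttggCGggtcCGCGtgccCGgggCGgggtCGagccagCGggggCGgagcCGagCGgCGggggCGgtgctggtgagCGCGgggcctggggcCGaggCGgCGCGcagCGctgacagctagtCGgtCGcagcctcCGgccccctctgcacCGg
Cyp3a59: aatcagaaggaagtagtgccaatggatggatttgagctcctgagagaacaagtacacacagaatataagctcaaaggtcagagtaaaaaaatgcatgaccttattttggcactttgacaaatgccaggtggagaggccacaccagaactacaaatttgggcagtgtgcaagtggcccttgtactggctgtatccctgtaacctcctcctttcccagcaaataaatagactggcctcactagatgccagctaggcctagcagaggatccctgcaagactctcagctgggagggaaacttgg
Cyp3a25: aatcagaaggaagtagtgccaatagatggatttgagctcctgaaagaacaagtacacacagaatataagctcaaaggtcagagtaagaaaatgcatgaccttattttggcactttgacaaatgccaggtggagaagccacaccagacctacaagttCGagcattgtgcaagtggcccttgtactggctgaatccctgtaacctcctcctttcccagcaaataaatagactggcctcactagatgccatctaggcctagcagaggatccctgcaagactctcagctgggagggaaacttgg

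The stretch at Cyp46a1 holds 34 CG dinucleotides, the one at Cyp24a1 holds 23 and the one at Cyp1b1 holds 16. The median over all protein-coding genes was 11 for a stretch of this length. At least 34 were found at 8.42% of all protein-coding genes, at least 23 at 25.2% and at least 16 at 40.8%. Cyp27b1 stands apart among the marked genes shown, with 2, a number that 87.4% of all protein-coding genes reached. The Cyp3a25 stretch holds 1 and the Cyp3a59 stretch none. These last 2 genes lie in the same tandem array, and 289 of the 300 bases (96.3%) are equal between them. Near-identical copies of this kind can lose reads to mapping filters, which the sources used here do not give, and the part of that in the missing peaks was not tested.

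Few P450 gene starts carried the mark, and those that did lay mainly outside the large tandem arrays. Of the 90 genes, 14 (15.6%, exact 95% interval 8.77 to 24.7) were marked in both replicates, where 26.1% of all protein-coding genes were. The Cyp2, Cyp3 and Cyp4 families had 7 of 72 marked (9.72%, interval 4.0 to 19), against 7 of 18 in the other families (38.9%, interval 17.3 to 64.3). The first share lay under that of all protein-coding genes, and the interval of the second includes it. The count of 7 in the Cyp2, Cyp3 and Cyp4 families became 11 of 72 (15.3%) without replicate 1 and 8 of 72 (11.1%) without replicate 2, and it ran from 2 to 13 over the other settings tried. Over all protein-coding genes the share was 30.2% without replicate 1 and 27.8% without replicate 2. The intervals cover counting error only. The genes of an array are not independent units, so no test was made between the 2 groups. A further 7 genes had a peak in 1 replicate alone, and 69 had none in either.

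**Figure D1:**
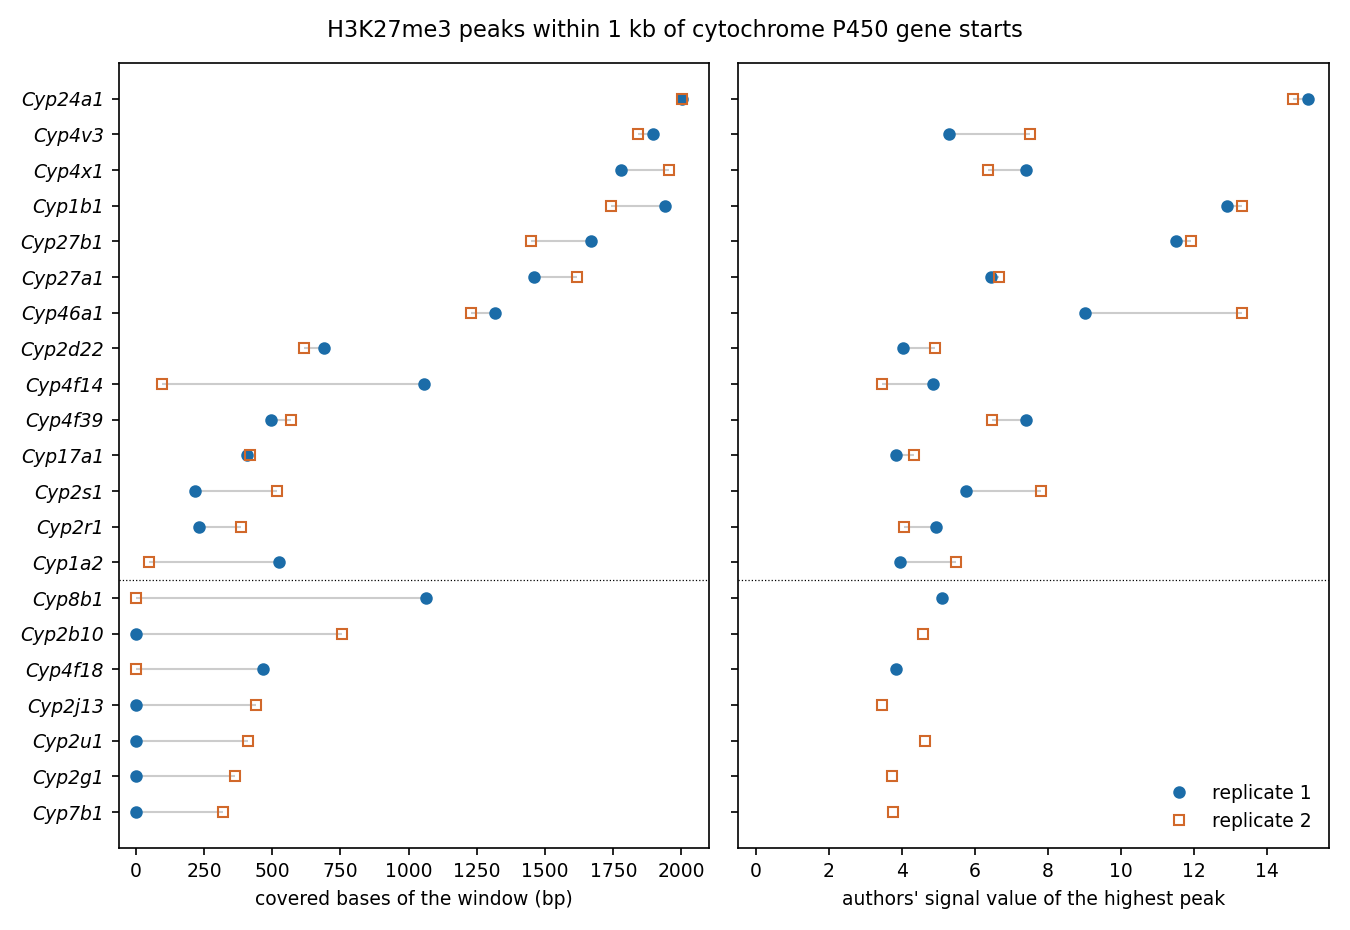
Covered bases of the window of 1 kb on each side (left, in bp) and the authors' signal value of the highest peak in it (right) for the 21 P450 genes with a peak, filled circles for replicate 1 and open squares for replicate 2. The dotted line separates the 14 genes with a peak in both replicates from the 7 with a peak in 1. Cyp24a1, at the top, is covered over the whole window in both replicates.

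The 3 vitamin D enzymes were all marked (100%, exact 95% interval 29.2 to 100), where 26.1% of all protein-coding genes were. With 3 genes, no trait of the pathway is read from this count. This pathway has a 25-hydroxylase of the liver, Cyp2r1, a kidney enzyme that makes the active hormone, Cyp27b1, and an enzyme that degrades the hormone, Cyp24a1. Cyp24a1, on chromosome 2 with its start at 170497145, had its whole window covered in both replicates. Its signal value, the authors' own and of unstated scaling, was 15.1 in replicate 1 and 14.7 in replicate 2, above 99.6% and 99.7% of the peaks of each list. Both values are the highest of any P450 gene. The stretch of bases common to the replicates, joined over gaps of up to 3 kb, ran for 22.5 kb from 170484379 to 170506868, and common bases covered 61.4% of the gene body. It also holds the start of Pfdn4, which encodes a prefoldin subunit, 717 bp from that of Cyp24a1 and itself marked, so the window cannot assign the mark to 1 of these genes.

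Cyp27b1, on chromosome 10 with its start at 127048250, was covered over 1668 bp in replicate 1 and 1447 bp in replicate 2. Its signal values were 11.5 and 11.9, at percentiles 97.2 and 98.3. The common stretch spans 3.94 kb (127047804 to 127051744), holds no other protein-coding start and covers 73.5% of the gene, the largest share of a gene body among the marked P450 genes. The sequence at the start is poor in CG, as shown above. The CpG ratio of observed to expected over 500 bp on each side was 0.247. This lies in decile 3 of all protein-coding promoters ranked from low to high. The signal is that of the highest peak overlapping the window, and the CpG content of the rest of the common stretch was not measured.

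Cyp2r1 was marked far more weakly than these. On chromosome 7 it had 232 bp covered in replicate 1 and 385 bp in replicate 2, with signal values of 4.93 and 4.05. All 227 common bases in the window lay downstream of the start. Further common bases of the same joined stretch of 5.37 kb lay beyond the window on the upstream side. With a minimum of 50% coverage the call was lost. Vdr, the receptor of the hormone, was marked over 786 bp and 1247 bp in replicates 1 and 2.

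The Cyp1 family, known for induction by the aryl hydrocarbon receptor, had 2 of 3 genes marked (66.7%). The interval of 9.43 to 99.2 includes the 26.1% of all protein-coding genes. Cyp1b1, whose human counterpart is mutated in congenital glaucoma, starts at 79715061 on chromosome 17. It was covered over 1941 bp in replicate 1 and 1741 bp in replicate 2, with signal values of 12.9 and 13.3. Its common stretch of 11.3 kb (79709740 to 79721061) holds no other protein-coding start.

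Cyp1a1 and Cyp1a2 lie head to head on chromosome 9 and are the main hydrocarbon-induced enzymes of the liver. Cyp1a2 was only just called, with 525 bp covered in replicate 1 and 50 bp in replicate 2, and all 50 common bases lay near the downstream limit of the window. Cyp1a1 had no peak within 1 kb of its annotated start, although common peaks covered 37.1% of its gene body and began 4.49 kb from that start. It was called when any annotated transcript start was allowed, and when the window reached 2.5 kb to each side.

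Enzymes of bile acid synthesis and cholesterol turnover were divided. Of 6 genes, 2 were marked, 2 had a peak in 1 replicate and 2 had none. The marked share of 33.3% had an interval of 4.33 to 77.7 that includes the 26.1% of all protein-coding genes. Cyp46a1, which hydroxylates cholesterol in neurons so that it can leave the brain, was covered over 1315 bp in replicate 1 and 1230 bp in replicate 2. Its signal value was 9.0 in replicate 1 and 13.3 in replicate 2, the widest gap between the replicates among the marked genes, at percentiles 92.7 and 99.2. It lies on chromosome 12 in the longest common stretch at any marked P450 gene, 40.2 kb from 108302492 to 108342715, together with the start of Hhipl1.

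Cyp27a1, a mitochondrial sterol hydroxylase, was covered over 1458 bp in replicate 1 and 1616 bp in replicate 2. The common stretch there was short, at 1.79 kb on chromosome 1 (74713117 to 74714904), and its signal values were 6.45 and 6.65. Cyp7a1, the rate-limiting enzyme of bile acid synthesis, had no peak, and its nearest common base lay 711 kb away. Cyp39a1, an oxysterol hydroxylase, had none either, and shares its window with the start of Slc25a27 at 211 bp. Its CpG ratio of 0.678 was close to the 0.679 of Cyp24a1, so a similar CpG ratio went with opposite calls at these 2 genes. They differ in the number of CG dinucleotides in the 300 bases around the start, 11 at Cyp39a1 against 23 at Cyp24a1.

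Cyp8b1, which sets the share of cholic acid among bile acids, lies just outside the call. Replicate 1 covered 1064 bp of its window and replicate 2 covered none, while common bases began 1081 bp from the start, 36.5% of the gene body was common and a window of 2.5 kb gave a call. Cyp7b1, another oxysterol hydroxylase, had 318 bp covered in replicate 2 alone, with its nearest common base 184 kb away.

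Of the steroid hormone enzymes 1 of 6 was marked (16.7%), with an interval of 0.421 to 64.1 that includes the 26.1% of all protein-coding genes. Cyp17a1, which makes the precursors of sex steroids, was covered over 409 bp in replicate 1 and 419 bp in replicate 2. Its signal values of 3.84 and 4.34 were among the lowest of the marked genes, and only 166 common bases lay in the window, all downstream of the start. Cyp11a1, which starts steroid synthesis by cleaving the side chain of cholesterol, and Cyp19a1, the aromatase that makes oestrogens, had no peak. Neither did Cyp21a1, Cyp11b1 or Cyp11b2, which act in the adrenal cortex. Common peaks nevertheless covered 12.7% of the Cyp11a1 gene body, beginning 5.99 kb from its start, and lay 12.2 kb from that of Cyp19a1. The remaining gene outside the Cyp2, Cyp3 and Cyp4 families, the orphan enzyme Cyp20a1, had no peak, although its CpG ratio of 0.745 lies in decile 8.

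Among the Cyp2, Cyp3 and Cyp4 families, 3 of 48 Cyp2 genes, 0 of 7 Cyp3 genes and 4 of 17 Cyp4 genes were marked. The most fully covered were Cyp4v3 and Cyp4x1. Cyp4v3, a fatty acid hydroxylase whose human counterpart is mutated in a crystalline dystrophy of the retina, had 1897 bp covered in replicate 1 and 1841 bp in replicate 2. Its signal value was 5.28 in replicate 1 and 7.52 in replicate 2. Cyp4x1, an enzyme of the brain, had 1778 bp and 1953 bp covered, with signal values of 7.4 and 6.36. Both sat in short common stretches, 2.02 kb at Cyp4v3 and 1.85 kb at Cyp4x1, centred near the start, and common bases covered under 3% of either gene body (2.97% and 2.94%).

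The other 5 marked genes of these families were only partly covered. Cyp4f39, whose human counterpart hydroxylates the very long fatty acids of the skin barrier, had 495 bp covered in replicate 1 and 570 bp in replicate 2. Cyp2d22 had 690 bp and 618 bp, and Cyp2s1, an enzyme found mostly outside the liver, had 217 bp and 518 bp. In all of these the common bases lay downstream of the start. Cyp4f14, which hydroxylates leukotrienes, had 1058 bp in replicate 1 but 95 bp in replicate 2, and the peaks of the replicates had no base in common within the window. The fifth, Cyp2r1, was described above.

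The position of the mark thus fell into 2 kinds. Common bases lay on both sides of the start in 7 of the 14 marked genes, Cyp24a1, Cyp1b1, Cyp27b1, Cyp46a1, Cyp27a1, Cyp4x1 and Cyp4v3. Within the window they lay only downstream in 6, Cyp1a2, Cyp2d22, Cyp2r1, Cyp2s1, Cyp4f39 and Cyp17a1, and Cyp4f14 had none. In 7 genes the call held under all 10 alternative settings tried, and these are the same 7 that had the mark on both sides. Width of coverage underlies both descriptions, so they are not separate evidence. The other 7 lost their call with 50% of the window covered. Over all protein-coding genes that setting left 3036 marked, where 5679 were marked under the main setting. The sides of the start, and calls held under all settings, were not counted over all protein-coding genes. Nothing particular to P450 genes is therefore read from these counts.

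Over the 14 marked genes the median coverage was 1186.5 bp in replicate 1 and 924 bp in replicate 2, against 1251 bp and 1200 bp over all marked protein-coding genes. The median signal was 6.1 in replicate 1 and 6.56 in replicate 2, against 7.67 and 7.56. The marked genes of the Cyp2, Cyp3 and Cyp4 families had median coverages of 690 bp (replicate 1) and 570 bp (replicate 2), against 1458 bp and 1447 bp for those of the other families. No test was made of these differences.

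The 7 genes with a peak in 1 replicate had narrow coverage in that replicate, from 318 bp at Cyp7b1 to 1064 bp at Cyp8b1, with a median of 441 bp. Replicate 2 alone, which has the larger number of peaks, gave 5 of them: Cyp2b10, a liver enzyme induced by phenobarbital, at 756 bp, Cyp2j13 at 441 bp, the fatty acid hydroxylase Cyp2u1 at 411 bp, Cyp2g1, an enzyme of the olfactory mucosa, at 364 bp, and Cyp7b1. Replicate 1 alone gave Cyp8b1 and Cyp4f18. Over all 21755 protein-coding genes 1273 had a peak in 1 replicate, 895 of them in replicate 2, so nothing particular to P450 genes is read from these counts. Their signal values ran from 3.47 at Cyp2j13 to 5.11 at Cyp8b1.

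The tandem arrays were almost free of the mark. Joining P450 genes less than 500 kb apart gave 9 loci of at least 2 genes, and the 7 loci of at least 5 genes held 64 of the 72 Cyp2, Cyp3 and Cyp4 genes. In these loci 5 of 64 genes (7.81%) were marked. The Cyp2c array on chromosome 19 (39007019 to 40187333) has 14 genes, among them Cyp2c29, Cyp2c37 and Cyp2c70, and encodes drug-metabolising and arachidonic acid epoxygenase enzymes. No peak of either replicate touched its 1180.3 kb. The Cyp3a array on chromosome 5 (145345279 to 146113287) has 6 of the genes taken here, among them Cyp3a11, a main drug-metabolising enzyme of mouse liver. The 768 kb of this array were equally free of peaks in both replicates. In the Cyp2j array of 8 arachidonic acid epoxygenase genes on chromosome 4, replicate 1 had no peak and replicate 2 covered 0.095%. Stretches of this size without common bases are frequent, since 34.3% of 4934 tiles of 500 kb and 20.7% of 2392 tiles of 1000 kb held none.

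**Figure D2:**
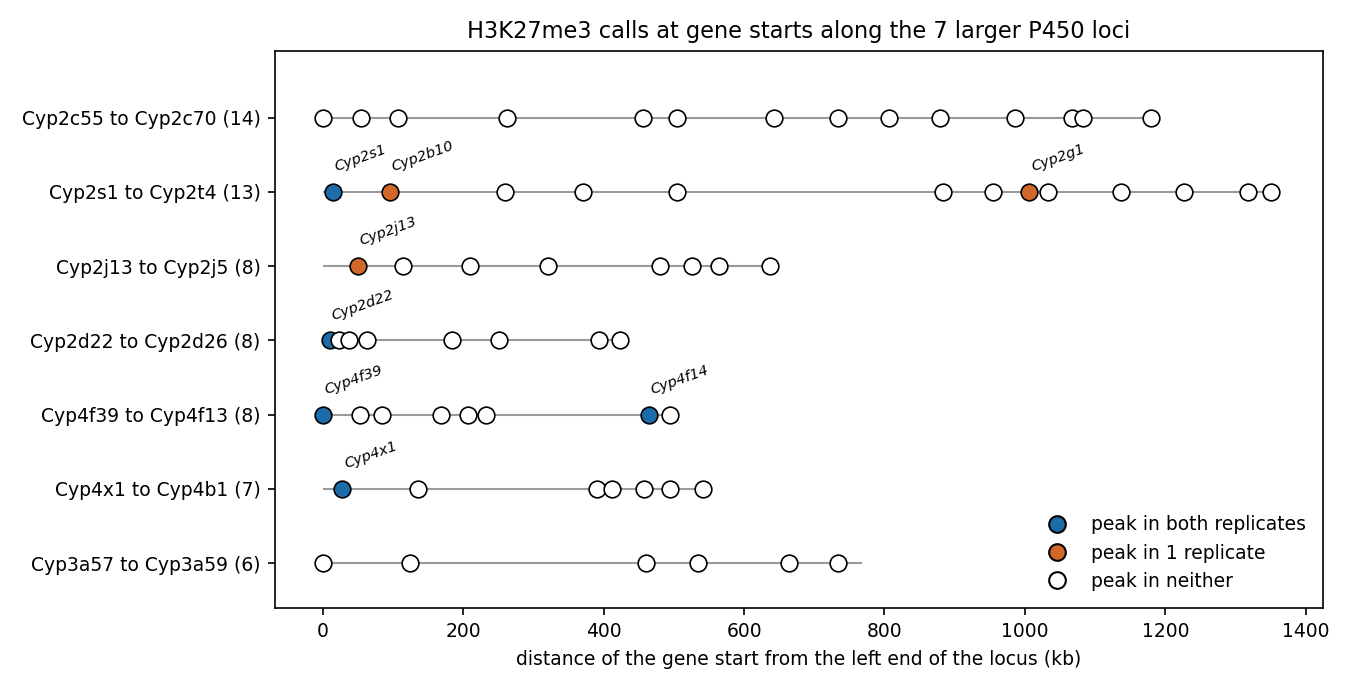
Gene starts along the 7 loci of at least 5 P450 genes, drawn by distance from the left end of each locus in kb. The number of genes taken here is in brackets. Blue marks a peak in both replicates, orange a peak in 1 and white none. Blue starts appear at the left end of 4 loci and at Cyp4f14. None of the 14 starts drawn for the Cyp2c array or the 6 drawn for the Cyp3a array has a peak.

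Of the 14 genes at the ends of these loci 4 were marked (28.6%, interval 8.39 to 58.1), a share near the 26.1% of all protein-coding genes. Of the 50 genes inside them 1 was (2.0%, interval 0.0506 to 10.6). The marked end genes were Cyp4x1 beside the Cyp4a genes on chromosome 4, Cyp2s1 beside the Cyp2a and Cyp2b genes on chromosome 7, Cyp2d22 in the Cyp2d array on chromosome 15 and Cyp4f39 in the Cyp4f array on chromosome 17. The marked gene inside was Cyp4f14, the last but 1 of the Cyp4f array. This division into ends and inside was made after the calls were seen, and the end genes also have the higher CpG ratios, with a median of 0.206 against 0.114 inside. The 4 marked end genes had ratios of 0.303 to 0.522. The part of CpG content in this arrangement was not tested. Cyp4f17, inside the Cyp4f array, had a ratio of 0.45, near the 0.46 of Cyp4x1 and the 0.459 of Cyp4f39, and no peak in either replicate.

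Within the Cyp4a locus the replicates shared 1778 bp of 541 kb, and the shared bases lay at Cyp4x1. The 5 Cyp4a genes taken here, fatty acid hydroxylases induced through the receptor PPAR-alpha, had no peak, among them Cyp4a10 and Cyp4a14. Cyp4a12a, Cyp4a12b and Cyp4a30b, also on chromosome 4, are left out by the symbol rule and were not examined. The locus of 13 genes from Cyp2s1 to Cyp2t4 shared 2856 bp of 1356.2 kb. Cyp2a5, Cyp2b9, Cyp2b13 and Cyp2f2 were among its 10 genes without a peak, beside Cyp2s1 and the 2 genes called in replicate 2 alone. The Cyp2d array shared 1216 bp of 424 kb, and the Cyp4f array shared 3896 bp of 495 kb. These values correspond to 0.328%, 0.211%, 0.287% and 0.788% of the 4 loci, where common bases made up 1.53% of the sequenced genome.

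Of the P450 genes that stand alone 8 of 21 were marked (38.1%), against the 5 of 64 in the larger arrays. The interval of the first share, 18.1 to 61.6, includes the 26.1% of all protein-coding genes. The solitary genes also have the higher CpG ratios, with a median of 0.314 against 0.114 inside the larger loci. The part of CpG content in this difference was not tested. By family, 2 of 8 solitary Cyp2, Cyp3 or Cyp4 genes were marked, namely Cyp2r1 and Cyp4v3, against 6 of 13 in the other families. Among the solitary genes without a peak were Cyp2e1, which oxidises ethanol, at 22.3 kb from the nearest common base, Cyp2c23 at 39.2 kb and Cyp3a13 at 36.3 kb. The 2 loci of fewer than 5 genes joined Cyp1a2, Cyp1a1 and Cyp11a1 on chromosome 9 and the adrenal pair Cyp11b1 and Cyp11b2 on chromosome 15. The chromosome 9 locus was unlike the arrays, with 5.91% of its 350 kb covered by common bases and 2 of its 5 other protein-coding starts marked.

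Most P450 starts without a peak were far from the mark. The distance from the start to the nearest common base had a median of 193 kb over the 69 genes without a peak, from 4.49 kb at Cyp1a1 to 1237.5 kb at Cyp2j8. No common base lay within 5 kb of the start in 67 of these 69, and none in the gene body in 65. The exceptions within 5 kb were Cyp1a1 and Cyp4f13. Common bases made up 1.53% of the sequenced genome, and these distances were not summarised for other genes without a peak. Nothing particular to P450 genes is therefore read from them.

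Few P450 starts, marked or not, had a protein-coding start from outside the P450 genes close by. The nearest protein-coding start outside the P450 genes lay within 10 kb of 2 of the 14 marked genes, Cyp24a1 and Cyp27b1, and within the window of Cyp24a1 alone. Among the 69 genes without a peak, 2 had such a start within 10 kb and 1 had it within the window. The share over all protein-coding genes was not counted. The common stretch held another protein-coding start at 2 genes, Cyp24a1 and Cyp46a1. For comparison, the nearest such start was a median of 27024.5 bp away from marked genes and 137721 bp away from genes without a peak. Starts of other P450 genes were not counted, so a place inside an array lengthens this distance. Of the 69 genes without a peak 47 lay inside the larger loci, and 8 of the 14 marked genes stood alone. The difference between the medians therefore cannot be told apart from array membership.

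Most P450 promoters were poor in CpG, and promoters poor in CpG were seldom marked among all protein-coding genes. The median CpG ratio was 0.152 over the 90 genes, against 0.558 over all protein-coding genes, and 70 of the 90 lay in the 3 lowest deciles. In those deciles 4 of 70 P450 genes (5.71%) were marked, against 9.58% of all protein-coding genes there. In the 7 higher deciles 10 of 20 P450 genes (50%) were marked, against 33.2% of all protein-coding genes. Deciles 4 to 7 held 17 of these 20 genes. There 8 of the 17 (47.1%) were marked, against 37.0% of all protein-coding genes. The counts are small, and the differences were not tested. Marked P450 genes had a median ratio of 0.472, and those without a peak had a median of 0.133.

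**Figure D3:**
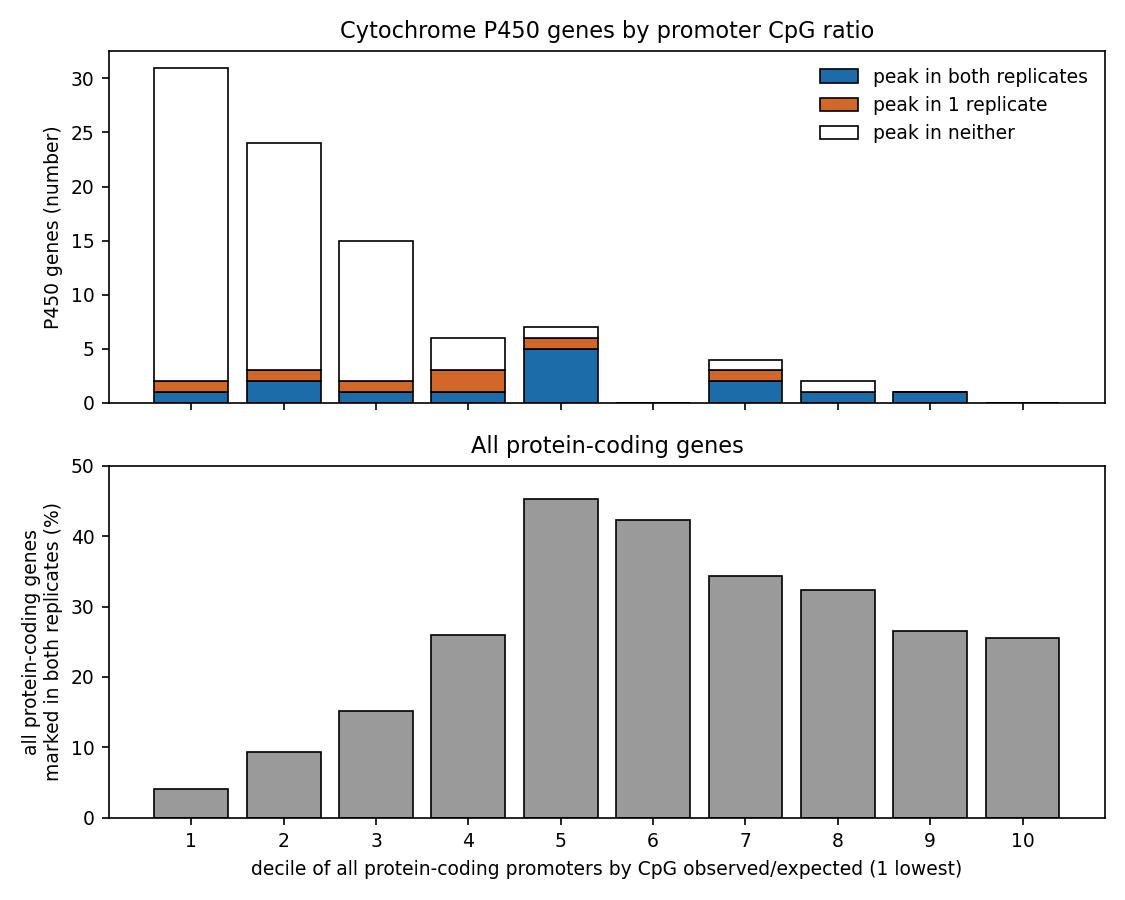
Top, number of P450 genes in each decile of all protein-coding promoters ordered by CpG ratio, blue for a peak in both replicates, orange for 1 and white for neither. Bottom, the share in percent of all protein-coding genes of each decile that were marked. The lowest decile holds 31 P450 genes, 1 of them marked, where 4.14% of all protein-coding genes were marked, and decile 5 holds 7, 5 of them marked, where 45.3% were.

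Divided by family, the counts differed in the 3 lowest deciles but not in the higher ones. In the 3 lowest deciles 1 of 60 Cyp2, Cyp3 and Cyp4 genes was marked, Cyp4f14, against 3 of 10 genes of the other families, Cyp1a2, Cyp17a1 and Cyp27b1. Over all protein-coding genes there the share was 9.58%. With 50% of the window covered, Cyp4f14, Cyp1a2 and Cyp17a1 lost their calls and Cyp27b1 kept its own. The difference in these deciles thus rests mostly on narrowly covered genes. The 2 groups are not matched for CpG ratio within this class. Decile 1, where 4.14% of all protein-coding genes were marked, held 30 of the 60 genes and 1 of the 10. In the higher deciles 6 of 12 Cyp2, Cyp3 and Cyp4 genes and 4 of 8 genes of the other families were marked, which is 50% of each. These counts are small, and their differences were not tested.

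Genes that work with the P450 enzymes fell on both sides. Of 16 nuclear receptors and sensors that control P450 genes, 7 were marked (43.8%), with an interval of 19.8 to 70.1 that includes the 26.1% of all protein-coding genes. Ppara, the fatty acid receptor that induces Cyp4a genes, was covered over 1774 bp in replicate 1 and 1565 bp in replicate 2. Nr5a1, a regulator of steroid-producing cells, was covered over 1495 bp and 1751 bp. The retinoid X receptor gene Rxrg was covered over 1645 bp and 1580 bp. Rxra, from the same family, was marked too, while Rxrb, also of that family, had no peak. Pparg, Nr0b2 and Vdr were marked as well. Neither replicate had a peak at Arnt, Hnf4a, Nr1h3 or Nr5a2. The xenobiotic receptors Nr1i2 and Nr1i3 and the bile acid receptor Nr1h4 had no peak, and the aryl hydrocarbon receptor Ahr had 199 bp in replicate 2 alone. Of 7 genes that supply electrons or turn over haem, Cyb5a was marked, over 99 bp and 150 bp. Por, the reductase that serves P450 enzymes of the endoplasmic reticulum, had no peak, and neither did Fdx1 and Fdxr, which serve those of mitochondria.

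Other enzyme families of detoxification, some of them clustered too, were together marked at a share inside the interval of the P450 genes. Over 7 families it was 14 of 118 genes (11.9%, exact 95% interval 6.64 to 19.1), where 26.1% of all protein-coding genes were marked. This is an average of unlike families. Aldehyde dehydrogenases (Aldh) had 5 of 21 (23.8%) and glutathione transferases (Gst) 5 of 22 (22.7%), both near the share of all protein-coding genes. Carboxylesterases (Ces) had 2 of 19. Sulfotransferases (Sult) had 1 of 21 and glucuronosyltransferases (Ugt) 1 of 22, at Sult4a1 and Ugt8a, while none of 7 Fmo and none of 6 Adh genes was marked. In the 3 lowest deciles of CpG ratio 2 of 70 of these genes were marked, where 9.58% of all protein-coding genes were. In the higher deciles 12 of 48 were marked, where 33.2% of all protein-coding genes were.

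**Figure D4:**
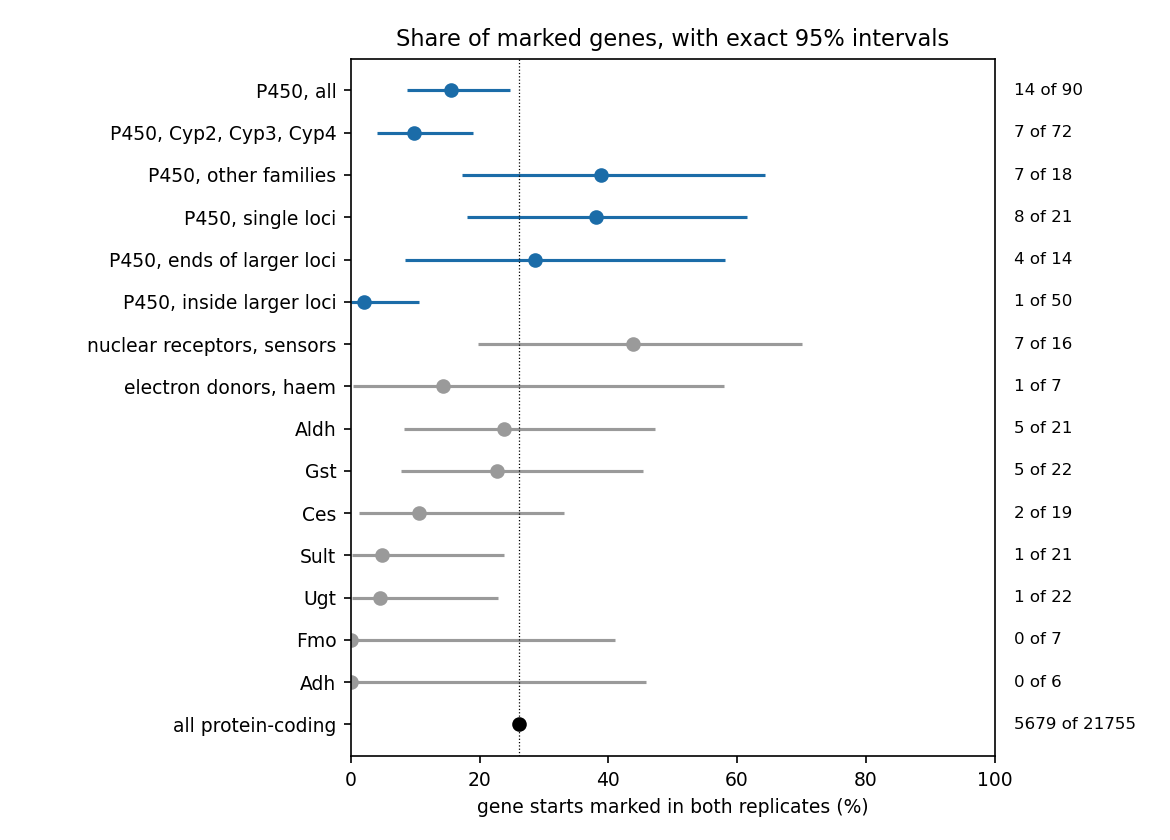
Share of gene starts marked in both replicates in percent (points) with exact 95% intervals (lines) for the P450 genes and their divisions in blue, for related lists in grey and for all protein-coding genes in black, with the dotted line at 26.1%. The P450 genes inside larger loci sit lowest among the blue points, at 1 of 50, and those of other families highest, at 7 of 18.

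The calls depended on the setting mainly where coverage was narrow. Besides the 7 genes called under every setting, 3 more (Cyp17a1, Cyp2d22 and Cyp2r1) were lost only under the minimum of 50% coverage, and 4 (Cyp1a2, Cyp2s1, Cyp4f14 and Cyp4f39) also with a window reaching 0.5 kb each way. No marked gene was lost in the relaxed or replicated lists. Cyp4b1 and Cyp2w1, with no peak in either replicate's own list, were called in the relaxed lists of both replicates and in both replicated lists. A set of 66 genes was called under none of the settings.

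**Figure D5:**
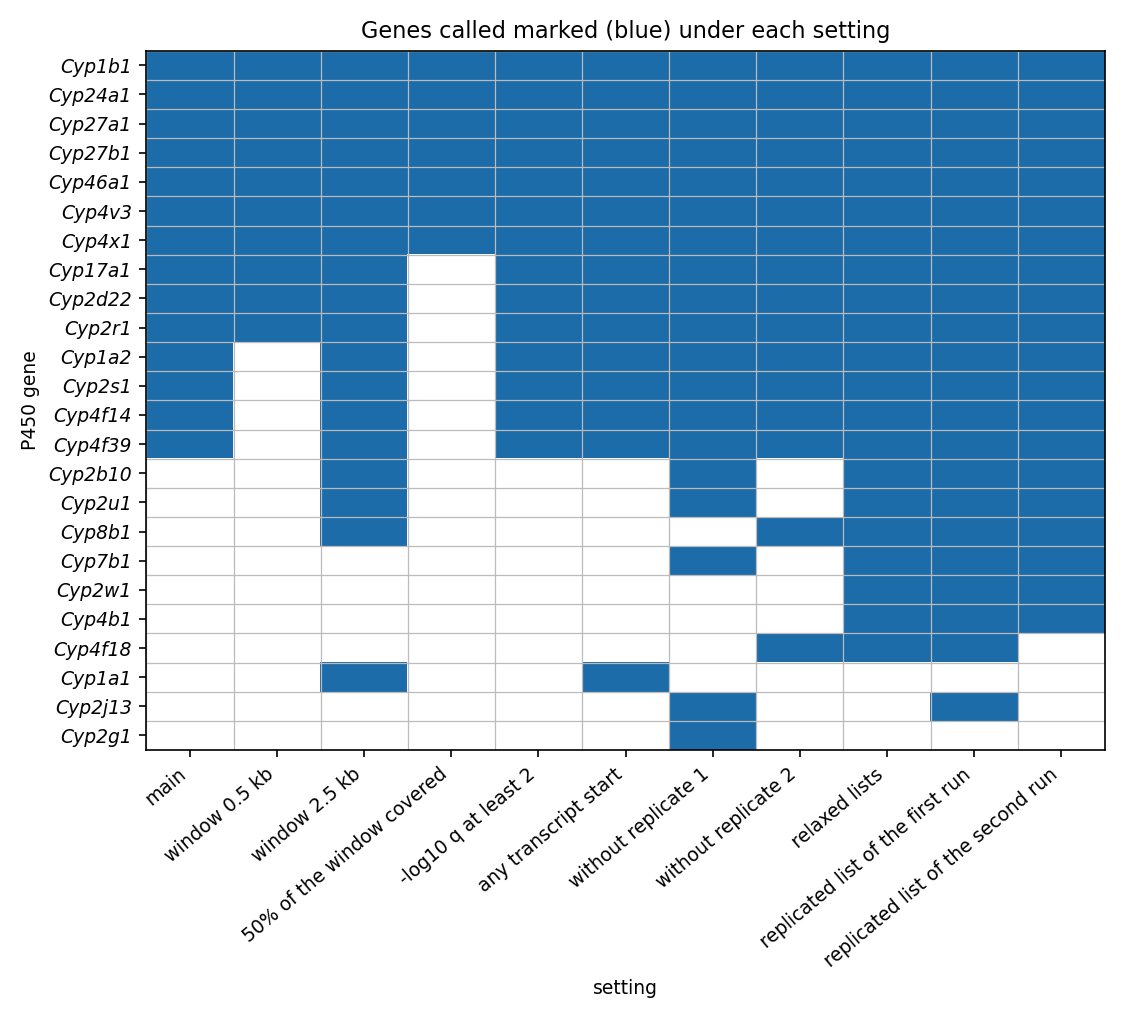
P450 genes (rows) called marked, in blue, under the reported setting (main, first column) and 10 alternatives (columns). The upper 7 rows are blue throughout, and 10 genes below the 14 called ones gained a call under at least 1 alternative.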

How the data were processed

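H3K27me3 ChIP-seq peak lists of 2 biological replicates of E14TG2a.4 were analysed. The deposited read-me places the lists on mm10, and by the types and parent files it names they form 2 sets, called runs 1 and 2 here. Run 1 holds the plain (here relaxed) list per replicate and a replicated list, and run 2 a pseudoreplicated list per replicate and another replicated list. What aligner, caller, cut-offs and control the authors used was not given in the sources used here. The deposited signal values are the authors' own, of unstated scaling, and were used only to describe and rank peaks. The deposited −log10 q of each peak served 1 alternative. The replicated lists, made from both replicates, served as alternatives only. A list on mm9 was not used here, and neither were the plain and the pseudoreplicated list called on the pooled libraries.

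Main calls used the pseudoreplicated lists, each called on 1 replicate. Gene starts came from GENCODE mouse release 21 on GRCm38, and sequence from RefSeq GRCm38.p6, the same build. An overlap of at least 1 bp counted. Domains joined common bases within 3 kb, and CpG ratios were taken over 500 bp on each side of the start. Shares have exact (Clopper-Pearson) 95% intervals. Control samples were not analysed here. Depth is unknown, so a missing peak may reflect shallow sequencing. The members, gene lists and settings were chosen with earlier results of these data known. Genes were named where they were marked, had a peak in 1 replicate, stood in a role list (steroids, bile acids, vitamin D, Cyp1) or, without a peak, lay nearest to or farthest from common bases. The other P450 genes named, and the members named of other families, were examples chosen after values were seen. Overlap and distance code was tested on simulated data. Scripts ran under Python 3.11.15 with pandas 2.3.3, NumPy 2.4.6, Matplotlib 3.10.9 and SciPy 1.17.1.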

Additional observations from a re-analysis of the deposited data

How the results depend on the processing

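The 14 marked P450 genes became 7 with 50% of the window covered and 22 with the replicated list of run 1. Under the other planned settings the count stayed within 1.5 times of 14, and it was 16 to 19 with 1 replicate left out. For the Cyp2, Cyp3 and Cyp4 genes, 7 marked became 4 with a window of 0.5 kb, 2 with 50% of the window covered, 12 with the relaxed lists, and 13 and 11 with the replicated lists of runs 1 and 2. Without replicate 1 there were 11, and without replicate 2 there were 8. The other families gave 5 to 9 of 18 under the 10 settings. Their share was above that of the Cyp2, Cyp3 and Cyp4 genes under each of these settings. Counts over all protein-coding genes moved with the settings too, between 14% with 50% of the window covered and 34.2% with the run 1 replicated list.

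For the ends of loci, a division added after seeing the data, 4 marked became 2 with a window of 0.5 kb and 1 with 50% of the window covered, and were 4 to 5 with 1 replicate left out. Inside loci, 1 became 0 under each of these window rules, 2 with a window of 2.5 kb, with the relaxed lists and with either replicated list, and 1 to 3 with 1 replicate left out. No paired analysis was possible because the series has 1 group. Depth could not be examined, since the lists hold no read counts, and replicate 2 has more peaks than replicate 1.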
